A study of Mus musculus with 28 samples.

Results

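Voltage-gated and potassium channel genes were followed across 7 sorts of single cells of the subependymal zone (SEZ) of adult mice, a layer along the lateral ventricle where neurons are made. Membership was set by symbol and by amount, with earlier results of these data known. Members had gene symbols that begin with Kcn, with Scn and a digit, or with Cacn, apart from Kcnj10. They also had at least 20 estimated transcripts over all wells of all libraries. Of 17690 genes in the tables, 122 matched the symbols and 89 reached the minimum. The members just inside the minimum were Kcng4 and Kcnh5 with 20.04 and 20.1 transcripts, and those just outside were Kcnmb2 with 16.05 and Kcnj9 with 14.04. Together the 89 members held 36146 transcripts, 0.326% of all. One of them, the noncoding RNA Kcnq1ot1, held 43.7% of these and is therefore kept out of sums below.

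Cells came from Bl/6 mice and were processed by SORT-seq, which sorts 1 cell per well and tags the 3′ end of each transcript with a random barcode. Troy-GFP cells carried GFP from a Troy-GFPiresCreER +/ki knock-in, used in this study to find neural stem cells (NSCs), and Ki67-RFP cells carried a red reporter of division from Ki67-tagRFP ki/ki. The tdTomato cells of day 2 and day 60 were from Ki67-iresCreER +/ki Rosa-tdTomato +/ki mice given 1 dose of 5 mg tamoxifen, so that cells expressing Mki67 at that time, and their progeny, were tdTomato-positive 2 or 60 days later. The mixed day-60 sort joined tdTomato-positive cells of the SEZ or the olfactory bulb with O4-positive oligodendrocytes. For the GLAST/EGF sort, cells bound a GLAST antibody, fluorescent EGF or both, and antibodies to Prom1 and CD24 were used for the Prom1/CD24 sort. Mice were 8 to 10 weeks old. Those of the day-60 sort were older, 16 to 19 weeks, and the mixed sort spanned 8 to 19 weeks. Each sort had 4 libraries of 96 wells. The labels do not say whether libraries came from separate animals, so the p-values may measure only technical spread.

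These genes encode the proteins that set and change the membrane voltage. Tandem-pore (Kcnk) and inward rectifier (Kcnj) potassium channels hold the resting potential and are prominent in astrocytes and stem cells of the same lineage. Voltage-gated potassium (Kcna, Kcnb, Kcnc, Kcnd), sodium (Scn) and calcium (Cacna1) channels generate and shape action potentials and calcium entry in neurons, and auxiliary subunits (Kcnab, Kcne, Kcnip, Cacnb, Cacna2d, sodium beta) carry them to the membrane and tune their gating. In the SEZ, stem cells give rise to dividing progenitors and then to neuroblasts, which become excitable neurons once they have reached the olfactory bulb.

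Of 2688 wells, 1789 held at least 1000 transcripts and were analysed as cells, from 64 in Prom1/CD24 to 349 in day-60 tdTomato, with 43149 to 572793 transcripts in the cells of a library. The Prom1/CD24 libraries stood apart: spike-in RNA made up 44.3% to 56.8% of their transcripts against at most 17.7% elsewhere, so they are given as levels only. Mki67 reached 646 CPM in Ki67-RFP against 227 in Troy-GFP and 0 in all 4 day-60 libraries, whereas Tnfrsf19, the gene of Troy, was at 125 ± 26.95 CPM in Troy-GFP and 145 ± 34.9 in day-60 tdTomato. Transcripts of 4 Y-linked genes summed to 407 ± 13.5 CPM in Troy-GFP, to 316 ± 33.4 in GLAST/EGF, and to 0 in every library of the other 5 sorts. Comparisons of Troy-GFP with Ki67-RFP or day-60 tdTomato therefore compare cells of different sex as well, and the sort and the sex cannot be told apart. Intestinal genes summed to 1173 CPM in Troy-GFP library 2, 683 in GLAST/EGF library 4 and 176 in GLAST/EGF library 3, and to at most 47.4 in every other library.

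Levels are given as transcripts per 1000000 (CPM), mean ± SD over libraries. A tagged 3′ end counts a molecule once whatever its length, so levels of different genes may be set side by side. Without Kcnq1ot1, the members summed to 4099.9 ± 384 CPM in the mixed day-60 sort, 2693 ± 166 in day-60 tdTomato and 1767 ± 98.7 in Troy-GFP. The sum was lower in GLAST/EGF (1154 ± 137 CPM), Prom1/CD24 (1058 ± 159.9), day-2 tdTomato (946 ± 162) and Ki67-RFP (909 ± 60.5). The ranges of the 4 sorts from GLAST/EGF down to Ki67-RFP overlapped or touched their neighbours in that order, while the libraries of the mixed, day-60 and Troy-GFP sorts overlapped with no other sort. The order of GLAST/EGF and Prom1/CD24 turned with the processing: with cells of at least 500 transcripts they were at 1142 and 1533 CPM, and with median-of-ratios scaling at 1097 and 1189. In sums over a sort, fewer cells of a type and less RNA per cell cannot be told apart.

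Tandem-pore potassium channels were the role with the highest summed level in Troy-GFP and day-60 tdTomato, Kcnq1ot1 aside. The 6 tandem-pore members summed to 919 ± 53.1 CPM in day-60 tdTomato and 563 ± 29.8 in Troy-GFP, but to 53.5 ± 13.9 in Ki67-RFP. Most of this was Kcnk1, a weakly inward-rectifying leak channel, whose 4 libraries stood at 745, 830.4, 776 and 720.1 CPM in day-60 tdTomato and at 425, 476, 445 and 493 in Troy-GFP. In Ki67-RFP they stood at 2.01, 14.1, 7.403 and 10.8 CPM and in day-2 tdTomato at 19.4, 0, 107 and 38.2. The Kcnk1 ranges of the first pair of sorts overlapped neither each other nor the second pair. Kcnk2, a leak channel opened by stretch and lipids, spanned 101 to 158 CPM in day-60 tdTomato and 69.9 to 105 in Troy-GFP, which overlapped, and 15.4 to 37.9 at day 2. Among inward rectifiers, Kcnj16, which partners Kcnj10 in glia, was at 48.2 ± 10.4 CPM in day-60 tdTomato, 43.3 ± 19.5 in the mixed sort and 37.6 ± 12.6 in Troy-GFP, and near 0 in Ki67-RFP and at day 2. Kcnj13 was read mainly in day-60 tdTomato, at 259, 58.03, 90.02 and 13.3 CPM, beside 7, 1, 2 and 1 choroid plexus-like cells in these libraries.

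Voltage-gated potassium channel alpha subunits, 26 members, summed to 1672 ± 191 CPM in the mixed sort, more than in any other sort. Kcna1, an axonal delayed rectifier, supplied much of it with 579, 510.2, 561 and 539 CPM, against 4.37, 13.3, 7.05 and 45.3 in day-60 tdTomato. Its relative Kcna2 was distributed differently, at 228 ± 33.8 CPM in day-60 tdTomato, 201 ± 18.01 in Troy-GFP and 165 ± 14.3 in the mixed sort, against 22.7 ± 7.403 in Ki67-RFP. Kcna6 was highest in the mixed sort at 176 ± 34.5 CPM, as was Kcnd2, an A-type channel (144 ± 23.9). Kcnc1, of the fast Kcnc family, had means from 17.1 CPM in Prom1/CD24 to 51.96 in the mixed sort, and its libraries overlapped. Of the calcium-activated channels, Kcnn2 was highest in day-60 tdTomato at 180.4 ± 21.5 CPM and lowest in Prom1/CD24 at 26.8 ± 6.34. Kcnn1 lay between 27.7 and 48.6 CPM in all 7 sorts. Auxiliary subunits followed no single order: Kcnip3, a calcium sensor that binds Kcnd channels, was at 88.7 ± 15.1 CPM in GLAST/EGF and 25.6 ± 13.1 at day 2. Kcne1l, an X-linked Kcne subunit, was at 110.4 ± 28.2 CPM in GLAST/EGF, 72.5 ± 1.81 in Ki67-RFP and 2.41 ± 3.25 in the mixed sort.

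Scn8a, a sodium channel of axon initial segments, had means of 49.2 to 85.7 CPM in 6 sorts and 13.4 ± 9.09 in Prom1/CD24. Scn3a, the sodium channel of immature neurons, was at 80.3 ± 27.6 CPM in the mixed sort and 23.4 ± 14.4 at day 2, and the beta subunit gene Scn3b at 43.6 ± 9.96 and 36.2 ± 9.905. Among pore-forming calcium channel genes, Cacna1a (P/Q-type) reached 102 ± 26.2 CPM in the mixed sort, and Cacna1d (L-type) was similar in the mixed sort, Troy-GFP and day-60 tdTomato, at 56.03, 47.3 and 43.98 CPM. Of the alpha2delta genes, Cacna2d1 was at 134 ± 30.1 CPM in the mixed sort and at most 42.6 elsewhere, whereas Cacna2d2 was at 48.2 ± 18.5 there and 36.7 ± 6.499 in day-60 tdTomato. Cacnb3, Cacnb4 and Cacng5, auxiliary genes, were higher at day 2 than in Troy-GFP cells, with no overlap: at day 2 they had 54.5 ± 17.9, 57.04 ± 15.95 and 76.9 ± 29.5 CPM, against 2.15, 2.17 and 6.05 in Troy-GFP. Cacng2, a gamma subunit that also carries AMPA receptors, was at 47.6 ± 18.8 CPM in the mixed sort, and Kcnrg, a suppressor of potassium channel assembly, had means of at most 5.01.

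**Figure D1:**
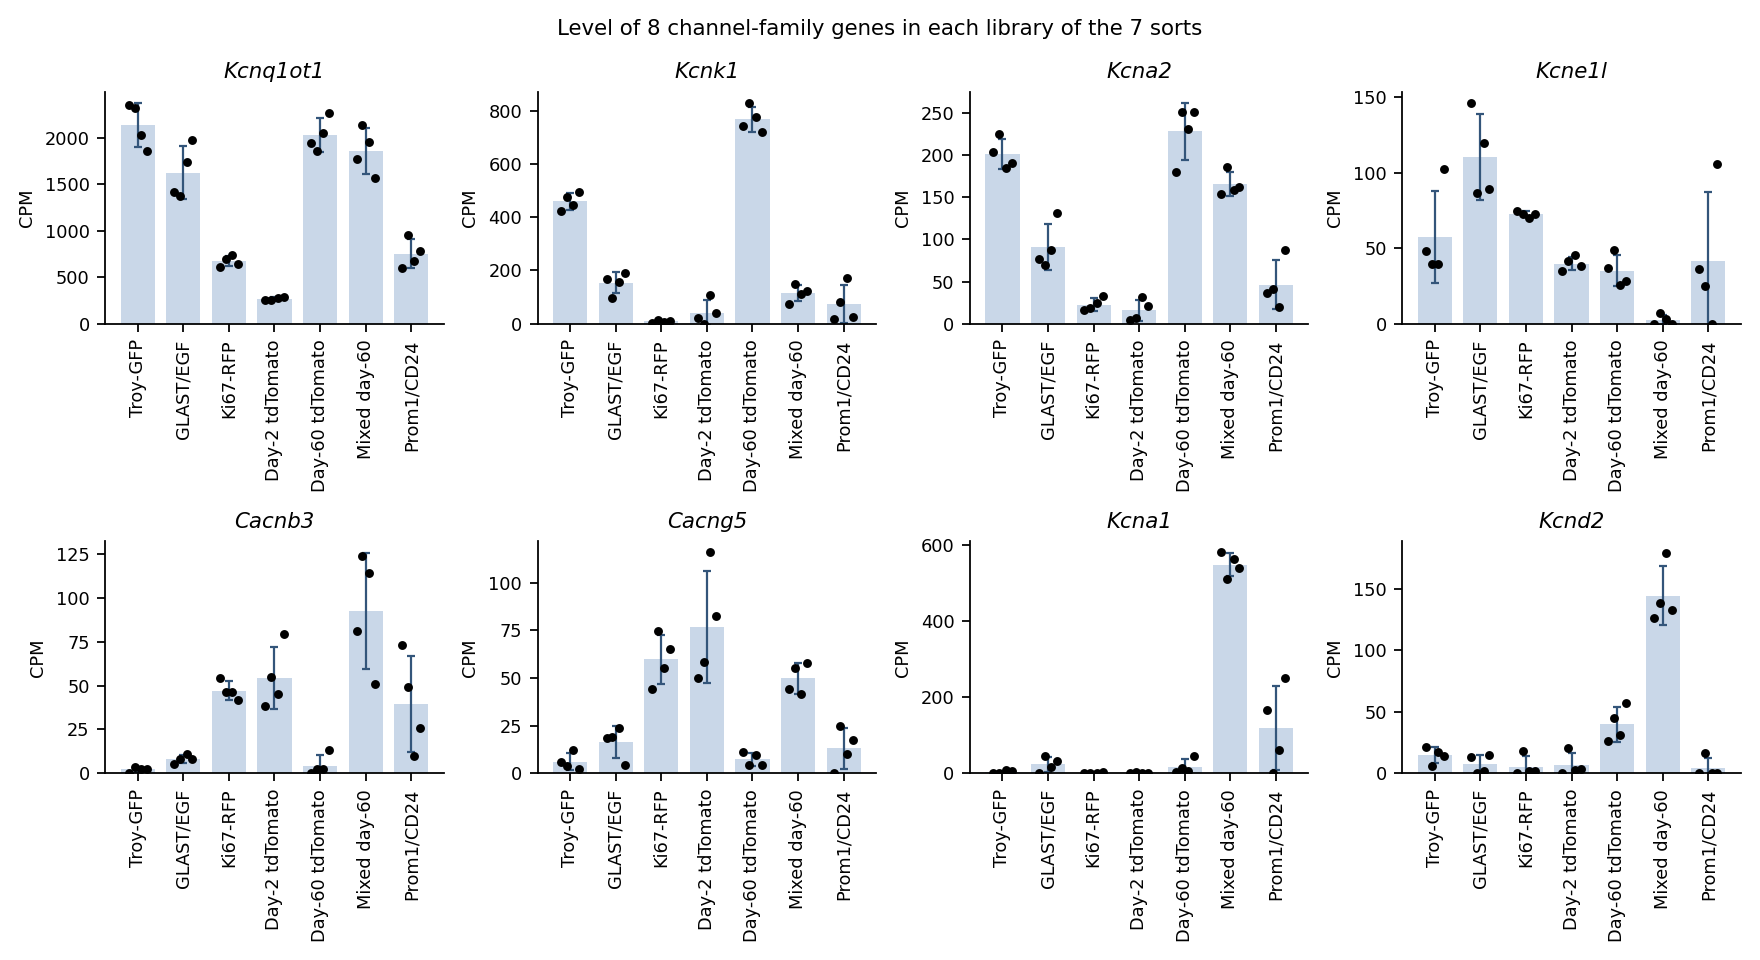
Level of 8 channel-family genes in CPM (y axis, linear from 0) in the 7 sorts (x axis); bars are means, error bars SD and points the 4 libraries. Kcnk1 and Kcna2 stand high in Troy-GFP and day-60 tdTomato, Cacnb3 and Cacng5 in Ki67-RFP, day-2 tdTomato and the mixed sort, and Kcna1 and Kcnd2 in the mixed sort.

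Cells were clustered without the channel genes, and clusters were named from markers: 672 NSC-like, 329 progenitor-like, 212 neuroblast-like, 142 oligodendrocyte-like and 79 mature neuron-like cells, with smaller endothelial-, microglia-, oligodendrocyte precursor (OPC)-, choroid plexus- and ependymal-like classes, and 202 cells unnamed. The NSC-like markers are shared by stem cells and astrocytes. Class levels below are CPM within a class, unscaled, over libraries with at least 5 such cells. Without Kcnq1ot1, the members summed to 7369.8 ± 1034 CPM in mature neuron-like cells (n = 4), 2442 ± 713 in NSC-like (n = 16), 2088 ± 169 in oligodendrocyte-like (n = 4) and 1352 ± 198 in neuroblast-like cells (n = 8). Progenitor-like cells had 652 ± 139 CPM (n = 17) and endothelial-like cells 296 ± 112 (n = 5). The mature neuron-like libraries overlapped with no other class. Those of NSC-like and oligodendrocyte-like cells overlapped, as did those of progenitor-like and endothelial-like cells. Pooled over all cells of a class, 50 of the 89 members were highest in mature neuron-like cells, 11 in OPC-like and 8 in NSC-like cells. Of all 13733 genes with at least 20 transcripts, 11.56% were highest in mature neuron-like cells, 11.59% in OPC-like and 8.58% in NSC-like cells. For 30 of the 50, 2 of the 11 and 3 of the 8 members, the 95% Poisson interval lay apart from that of the next class, as it did for 30.48%, 13.39% and 27.25% of all genes highest in these classes; the intervals cover counting error only.

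In NSC-like cells Kcnk1 stood at 652 ± 192 CPM (333 to 925), against 12.9 ± 17.4 in progenitor-like, 5.399 ± 11.6 in neuroblast-like and 76.5 ± 13.7 in mature neuron-like cells. Kcna2 was at 265 ± 80.4 CPM and Kcnn2 at 144 ± 51.6 in the same class. The NSC-like libraries did not overlap with those of the 3 other classes just named for Kcnk1, but for Kcna2 they overlapped with oligodendrocyte-like and for Kcnn2 with progenitor-like libraries. In oligodendrocyte-like cells Kcna1 stood at 1035 ± 87.4 CPM and Kcna6 at 361 ± 62.2, against 125.6 ± 77.1 and 14.5 ± 6.48 in mature neuron-like cells. The next class in pooled level was OPC-like for both genes, at 146.5 and 99.7 CPM. Kcna2 was at 154 ± 50.9 CPM in oligodendrocyte-like cells, so 3 alpha subunits of the Kcna family were found together in this class. Kcnk13, a tandem-pore channel gene, was also mainly read in oligodendrocyte-like cells, at 128 CPM (104 to 156). The mature neuron-like class led in Kcnd2 (383 ± 56.4 CPM), Cacna2d1 (361 ± 85.8) and Cacna1a (231 ± 48.5). Kcne1l and Kcnrg, the latter near 0, were the 2 members highest in progenitor-like cells. Kcne1l had 100 ± 46.97 CPM there, 57.1 ± 43.4 in NSC-like cells, with overlapping libraries, and 0 in all 4 libraries of mature neuron-like cells. Cacng5 was at 153 ± 15.96 CPM in neuroblast-like and 133 ± 21.5 in mature neuron-like cells, with overlapping libraries, and at 18.4 ± 17.6 in progenitor-like cells.

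Some members marked small classes, given here as pooled levels with exact Poisson intervals. In 12 choroid plexus-like cells Kcnj13, an inward rectifier of transporting epithelia, was at 1574 CPM (1363 to 1808) and Kcne2, an auxiliary subunit known from that epithelium, at 724 CPM (583 to 888). In 10 ependymal-like cells, Kcnmb1, the beta subunit of the large-conductance calcium-activated channel, was at 435 CPM (292 to 623) and Scn7a, a sodium sensor rather than a voltage-gated channel, at 329.9 CPM (207 to 498). Kcnmb1 lies within Kcnip1 on the opposite strand, so reads of this pair may be confused if counting ignored strand. In 23 OPC-like cells Kcnip3 was at 491 CPM (386 to 616) and Scn3a at 240.2 CPM (168 to 332), the latter overlapping with mature neuron-like cells, and in 47 microglia-like cells Kcnk6 at 117 CPM (74.2 to 175). Kcnq1ot1 was at 2450.2 ± 465 CPM in NSC-like, 2007 ± 428 in mature neuron-like and 563 ± 237 in neuroblast-like cells. It is an imprinted nuclear RNA encoded at chr7:143203458-143296549 (GRCm38, minus strand), within Kcnq1 and opposite to it, and encodes no channel.

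**Figure D2:**
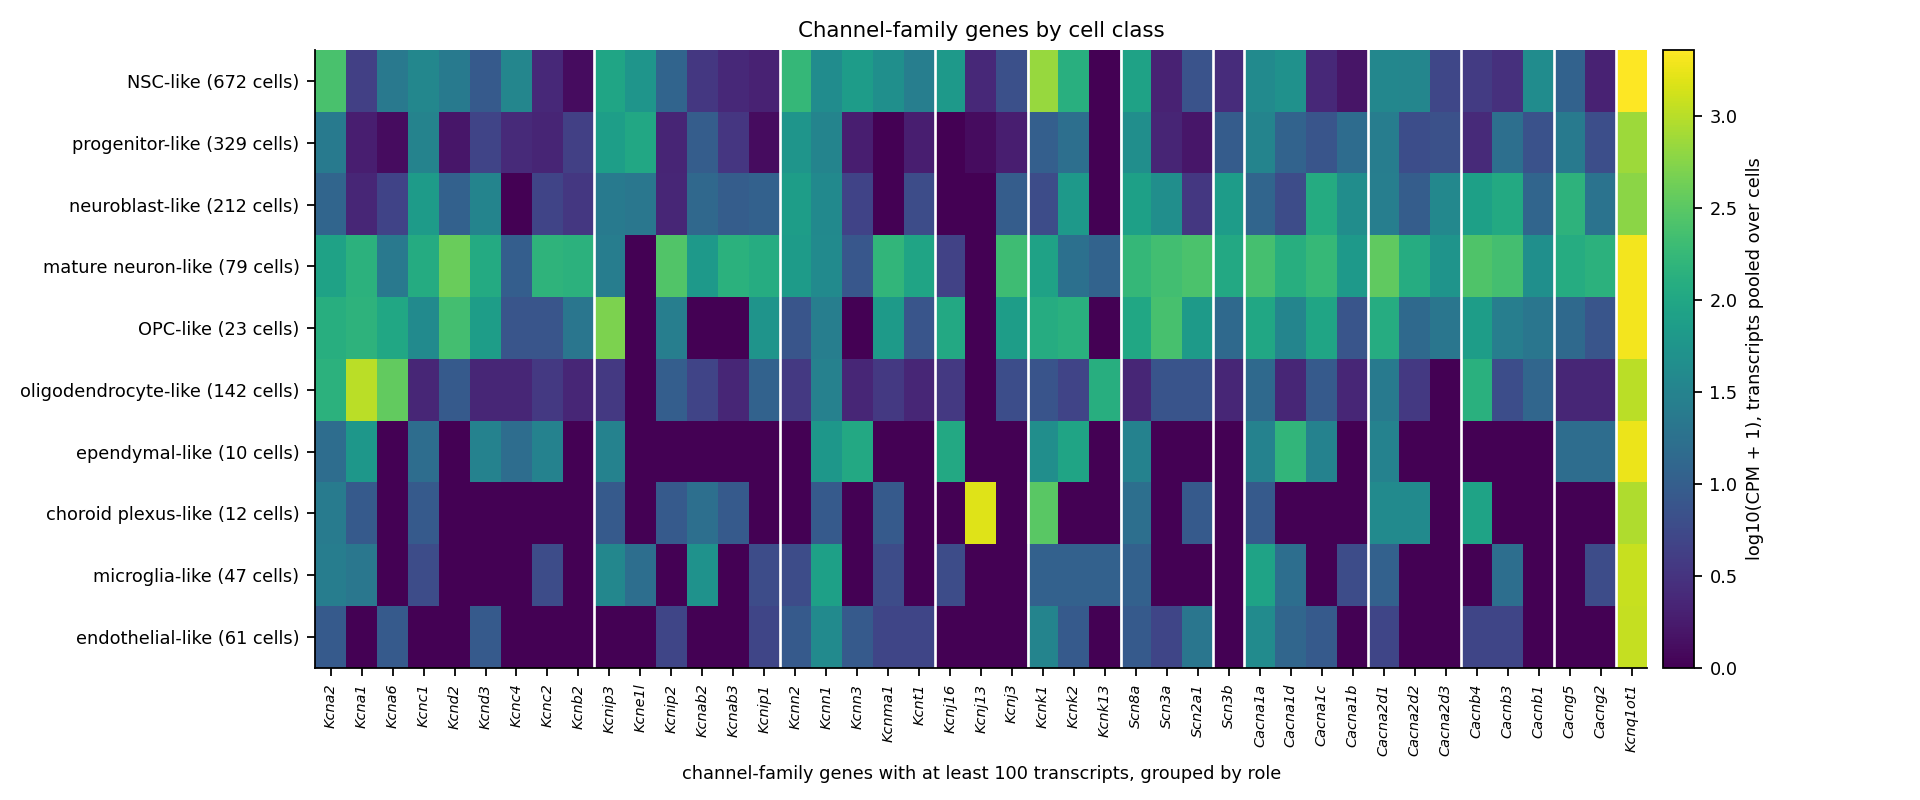
Pooled level of members with at least 100 transcripts (columns, grouped by role) in 10 cell classes (rows, with the number of cells), as log10(CPM + 1). Kcnk1 stands out in NSC-like cells, Kcna1 and Kcna6 in oligodendrocyte-like cells, Kcnj13 in choroid plexus-like cells, and most voltage-gated genes in mature neuron-like cells.

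Channel levels also varied within the NSC-like class, which held 4 clusters led by Grin2c (214 cells), Thbs4 (147), Crym (234) and Agt (77). These are pooled CPM with Poisson intervals and no test, since cells of the same libraries are shared. Kcnk1 was at 759.7 (709.6 to 812) in the Grin2c-led, 955 (903 to 1009) in the Crym-led and 636 (554 to 726) in the Agt-led cluster, but at 191 (162 to 224) in the Thbs4-led cluster. The sorts are mixed unequally in these values: day-60 tdTomato gave 20 of the 147 cells of the Thbs4-led and 154 of the 234 of the Crym-led cluster, and within the Thbs4-led cluster Kcnk1 was at 351 ± 116 CPM in day-60 tdTomato and 193 ± 81.4 in Troy-GFP (n = 4 and 4). Kcnn3 and Kcnma1, small- and large-conductance calcium-activated channel genes, were at 19.1 (10.7 to 31.4) and 1.27 (0.032 to 7.06) CPM in the Thbs4-led cluster, against 93.8 (76.7 to 113) and 56.2 (43.2 to 71.9) in the Grin2c-led cluster. Kcne1l ran the other way, with 159 (133 to 189.6) CPM in the Thbs4-led cluster and at most 30.4 (21.7 to 41.4) in the others. The Agt-led cluster was set apart by Kcnt1, a sodium-activated potassium channel gene, at 174 (132 to 224) CPM against at most 17.8 (10.9 to 27.5) elsewhere, and by Kcnj16 at 200.5 (156 to 254) and Kcnd2 at 133 (96.8 to 177). Kcnn2 and Kcnk2 had similar levels in the 4 clusters: their pooled CPM were 164 to 191 and 125 to 138, with overlapping intervals.

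The mature neuron-like class held a Calb2- and Penk-led cluster of 63 cells and a Th- and Trh-led cluster of 16, all 16 from the mixed sort. Kcnip2, a Kcnd-binding subunit, was at 389 (331 to 456) pooled CPM in the first and 0 (0 to 24.3) in the second, and Kcnb2 at 199 (158 to 248) and 0 (0 to 24.3). Over the whole class Kcnip2 stood at 559.8, 425, 0 and 311 CPM in the 4 mixed libraries, 1 of them at 0, a spread that the pooled interval does not cover. Kcnc2, of the fast-spiking Kcnc family, was at 67.7 (44.7 to 98.4) CPM in the first and 379.8 (288 to 491) in the second. Cacna2d2 had 42.6 (24.9 to 68.2) and 325 (241 to 429.8) CPM and Cacnb2 32.6 (17.4 to 55.7) and 166 (107 to 244). Kcnma1 and Cacna1i had overlapping intervals in these clusters. The 16 cells limit what can be said of the second cluster.

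Promoter sequences are shown for 1 member that was highest in each of 5 classes, so that the windows of genes with unlike distributions can be read side by side. RefSeq (GRCm38.p6) gave a window for 63 of the 89 members. Each sequence holds the 250 bases before the annotated start, 5′ to 3′ along the gene. Capitals mark the E-box CAGCTG and the letters TTGGCA, which form part of the nuclear factor I site, on either strand. They are Kcnk1 (chr8:125994852-125995101, plus strand), highest in NSC-like cells, Kcne1l (chrX:142306199-142306448, minus), highest in progenitor-like, Cacng5 (chr11:107915056-107915305, minus, the first of 2 windows), highest in neuroblast-like, Cacna2d1 (chr5:15934441-15934690, plus), highest in mature neuron-like, and Kcna6 (chr6:126740675-126740924, minus), highest in oligodendrocyte-like cells.
Kcnk1: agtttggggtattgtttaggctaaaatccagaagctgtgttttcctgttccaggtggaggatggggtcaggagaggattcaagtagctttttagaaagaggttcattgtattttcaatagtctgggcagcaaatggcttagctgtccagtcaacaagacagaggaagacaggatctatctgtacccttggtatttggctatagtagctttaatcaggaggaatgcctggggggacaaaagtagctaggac
Kcne1l: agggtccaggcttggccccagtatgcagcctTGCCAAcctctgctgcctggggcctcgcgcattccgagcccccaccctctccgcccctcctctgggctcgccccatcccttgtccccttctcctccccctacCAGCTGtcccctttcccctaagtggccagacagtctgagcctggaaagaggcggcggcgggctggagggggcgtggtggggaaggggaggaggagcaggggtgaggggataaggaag
Cacng5: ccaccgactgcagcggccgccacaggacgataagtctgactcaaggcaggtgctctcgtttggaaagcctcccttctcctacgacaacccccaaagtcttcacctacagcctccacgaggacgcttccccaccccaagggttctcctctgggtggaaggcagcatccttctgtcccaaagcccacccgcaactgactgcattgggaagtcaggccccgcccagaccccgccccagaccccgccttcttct
Cacna2d1: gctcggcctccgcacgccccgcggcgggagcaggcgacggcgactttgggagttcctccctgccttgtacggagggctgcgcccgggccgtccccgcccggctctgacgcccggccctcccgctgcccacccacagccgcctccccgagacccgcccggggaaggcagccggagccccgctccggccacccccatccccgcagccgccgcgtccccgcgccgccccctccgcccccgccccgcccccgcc
Kcna6: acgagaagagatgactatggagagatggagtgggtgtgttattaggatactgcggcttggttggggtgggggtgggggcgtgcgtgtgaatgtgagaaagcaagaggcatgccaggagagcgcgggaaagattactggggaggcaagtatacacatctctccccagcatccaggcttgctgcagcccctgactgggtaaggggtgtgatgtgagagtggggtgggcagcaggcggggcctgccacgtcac
The Kcnk1 window held 0 CpG and 44.4% G and C, and the Cacna2d1 window 36 CpG and 82.4%. The Kcne1l window was the only one of the 5 with a match, CAGCTG starting 117 bases before the start and TTGGCA on the opposite strand at 219 bases. Over the 95 windows of members, CAGCTG was found on either strand in 28.4%, against 13.001% of all 32851 windows in the table. CAGCACC, a stretch of the site of the repressor REST, was found in 4.21% against 5.73%, and TTGGCA in 10.5% against 12.3%. Member windows had a median G and C share of 58.8% against 52.4% and 8 CpG against 6, and genes with several windows count more than once. A match is a description of letters and not of binding.

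Whether cells with the reporter of division differed in channel genes from Troy-GFP cells was tested over 21 members that passed the filter on low values. Of these, 2 rose and 12 fell in Ki67-RFP, at adjusted p below 0.05 by limma voom. Over all 8396 genes tested, 28.4% rose and 31.2% fell, so the members' share of falls, 12 of 21, was above the background and their share of rises below it. Their median log2 fold was -0.92, against -0.02 for all genes. The filter asked for 15 transcripts in all and for 18.9 CPM, which is 10 transcripts at the median depth, in at least 4 of the 8 libraries. Counting a sort as at the minimum when at least 3 of its libraries were, here and below, 10 of the 21 were at the minimum in both sorts, 8 passed through Troy-GFP alone and 3 through Ki67-RFP alone, and for these 11 the filter favoured a difference. Of the 10, 4 were called lower and 0 higher. Without the filter, 12 of 82 members rose and 24 fell, where 18.4% of all 16159 genes rose and 24.1% fell, so the members then lay closer to the background. Members that did not pass included Cacna1a, Cacna2d1, Kcnc1, Kcne1l, Kcnip3 and Kcnn1.

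Kcnk1, Kcnn3 and Kcnma1 had the largest falls among the called members. Kcnk1 fell by 5.91 ± 0.42 (log2 fold ± SE, n = 4 and 4, adjusted p = 4.9e-12), Kcnn3 by 4.66 ± 0.54 and Kcnma1 by 4.35 ± 0.53. Kcnk2 fell by 1.55 ± 0.24 and Kcnn2 by 0.93 ± 0.18 on the log2 scale. Of the voltage-gated genes, Kcna2 fell by 3.23 ± 0.25, from 204, 226, 185 and 190.5 CPM in the Troy-GFP libraries to 16.1, 18.1, 24.03 and 32.6 in Ki67-RFP, with no overlap. The L-type calcium channel gene Cacna1d fell by 2.36 ± 0.40, the alpha2delta gene Cacna2d2 by 2.92 ± 0.60 and the beta subunit gene Cacnb1 by 1.54 ± 0.43 on the log2 scale. Without Ki67-RFP library 1 the value for Cacna2d2 was -2.19. The imprinted RNA Kcnq1ot1 fell by 1.78 ± 0.10. Of the falls named here, those of Kcnk2, Kcnn2 and Kcnq1ot1 were of members at the minimum in both sorts. Kcnk1, Kcnn3, Kcnma1, Kcna2, Cacna1d, Cacna2d2 and Cacnb1 passed the filter through Troy-GFP alone, so the filter favoured their falls. The genes that rose are named as auxiliary calcium channel subunits, and both passed the filter through Ki67-RFP alone. Cacnb3 rose by 3.99 ± 0.53, from 0, 3.77, 2.46 and 2.37 CPM in Troy-GFP to 54.4, 46.3, 46.2 and 41.6 in Ki67-RFP. The rise of Cacng5 was 3.17 ± 0.51. The sorts did not overlap in 13 of the 14 called members, nor in 84.9% of all called genes. Troy-GFP held 214 NSC-like cells of 311 and Ki67-RFP 5 of 315, with 2 and 73 neuroblast-like cells; the part of this in the differences was not tested.

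GLAST/EGF cells were compared with the same Troy-GFP libraries. Of 19 members tested, 1 rose and 8 fell, where 14.9% of all 7818 genes rose and 15.5% fell. Of the 19, 13 were at the minimum in both sorts, and of these 1 was called higher and 6 lower. The median log2 fold was -0.51 for members and 0.02 for all genes. Kcnk1 fell by 1.61 ± 0.16 on the log2 scale (adjusted p = 4.5e-07), with GLAST/EGF libraries at 168, 97.1, 158 and 189.5 CPM. Kcnma1 fell by 2.33 ± 0.62, Kcnn3 by 1.58 ± 0.34, Kcna2 by 1.16 ± 0.18, Kcnk2 by 1.14 ± 0.28, Kcnn2 by 0.89 ± 0.19, Scn8a by 0.58 ± 0.22 and Kcnq1ot1 by 0.41 ± 0.11. Kcnma1 and Kcnn3 passed the filter through Troy-GFP alone, so the filter favoured their falls. Kcne1l rose by 1.03 ± 0.26, from 47.95, 39.6, 39.4 and 102 CPM in Troy-GFP to 146, 86.4, 119.8 and 89.3 in GLAST/EGF. Its sorts overlapped, as did those for Kcnq1ot1, while the other 7 called members did not overlap, nor did 81.8% of all called genes.

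NSC-like cells made up 113 of 216 GLAST/EGF cells and 214 of 311 Troy-GFP cells. Within NSC-like cells, Kcnk1 stood at 411 ± 115 CPM in GLAST/EGF and 615 ± 59.2 in Troy-GFP, and Kcne1l at 123 ± 19.6 and 41.7 ± 11.3, given without a test; the Thbs4-led cluster held 38.9% of the NSC-like cells of GLAST/EGF and 30.4% of those of Troy-GFP, and the Crym-led cluster, where pooled Kcnk1 was higher, 11.5% and 28.04%. The part of these shares was not tested. Without the 3 libraries high in intestinal genes, 5 of 21 members were called, where 8.56% of all 8270 genes rose and 7.01% fell. All 5 were lower: Kcna2, Kcnk1, Kcnk2, Kcnn2 and Kcnq1ot1, the same 5 as with libraries of the run HVJH2BGXX only. Without the 3 libraries, Kcne1l was at 0.97 (adjusted p = 0.057), Kcnn3 at -1.36 (0.062), Kcnma1 at -2.82 (0.14) and Scn8a at -0.78 (0.092). Scn8a lost its call in 7 of the 8 fits that left out 1 library, all but that without Troy-GFP library 2, with log2 folds of -0.64 to -0.50, and the value for Kcnma1 was -1.68 without GLAST/EGF library 2.

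Cells found 60 days after labelling were compared with those found at 2 days, a pair that differs in the age of the mice too. All day-60 libraries carried the run code HVJH2BGXX and the day-2 libraries none, so a difference of run cannot be told apart from the time. Of 24 members tested, 12 rose and 6 fell at day 60, against 34.8% of all 7648 genes that rose and 32.8% that fell. The median log2 fold of the members was 0.71, against 0.01 over all genes. Only 7 members were at the minimum in both groups; 10 passed through day 60 alone and 7 through day 2 alone. Thus the directions of 17 were tied to the filter. Of the 7 members, 3 rose and 0 fell, so the 6 falls were all of members that passed through day 2 alone. Without the filter, 31 of 86 members rose and 10 fell, where 26.9% of all 15880 genes rose and 20.1% fell.

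Of the tandem-pore, inward rectifier and calcium- or sodium-activated potassium channel genes, 7 of 24 were tested and 6 rose at day 60. Over all genes tested, 34.8% rose. Of the 6, only Kcnn2 was at the minimum in both groups. Kcnk1, Kcnk2, Kcnn3, Kcnj16 and Kcnma1 passed through day 60 alone, so their direction was tied to the filter. Kcnn1, at 0.56 ± 0.40, did not pass. Kcnk1 rose by 5.22 ± 0.62 on the log2 scale, which became 3.95 without day-2 library 2 and 6.09 without day-2 library 3. The same day-2 libraries held 0 and 3 NSC-like cells and 0 and 107 CPM of Kcnk1. Kcnn3 rose by 4.95 ± 0.46, Kcnj16 by 4.49 ± 0.49, Kcnk2 by 2.19 ± 0.33 and Kcnn2 by 1.33 ± 0.20. Kcnma1, at 52.5, 57.5, 82.4 and 41.6 CPM at day 60 and 0 in all 4 day-2 libraries, was at least 23.4-fold higher, against a floor of 3 transcripts over the day-2 sort. Among voltage-gated genes Kcna2 rose by 4.02 ± 0.45 and Cacna1d by 4.16 ± 0.53, and among auxiliary genes Cacna2d2 by 3.08 ± 0.59 and Kcnip3 by 1.74 ± 0.33. Kcna2, Cacna1d, Cacna2d2 and Kcnip3 also passed through day 60 alone, so their direction was tied to the filter too. Cacna2d2 was at 3.72 without day-2 library 2 and 2.43 without day-2 library 3. Kcnq1ot1 rose by 2.96 ± 0.13, from 252, 252, 275 and 290.4 CPM to 1945, 1855, 2054 and 2272.

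The genes that fell at day 60 were calcium channel genes and a sodium beta subunit. Cacna1c, an L-type channel, fell by 4.38 ± 0.59 on the log2 scale, from 81.1, 61.9, 76.2 and 62.03 CPM at day 2 to 0, 0, 7.05 and 10.99 at day 60. Cacnb3 fell by 3.84 ± 0.58, Cacng5 by 3.24 ± 0.47, Scn3b by 3.18 ± 0.56, the N-type channel gene Cacna1b by 1.66 ± 0.46 and Cacnb4 by 1.31 ± 0.47. Without day-60 library 1 Cacna1c and Cacnb3 were at -3.77 and -3.16, without library 4 at -5.02 and -4.50, and without library 2 Scn3b was at -2.57. The groups overlapped for Cacnb4 alone among the 18 called members, and 88.9% of all called genes did not overlap. Its call was lost without day-60 library 2 (-1.02, adjusted p = 0.075), day-60 library 3 (-0.86, 0.090) or day-2 library 4 (-1.20, 0.055). NSC-like cells were 289 of 349 at day 60 and 7 of 220 at day 2, and neuroblast-like cells 2 and 128; the part of this makeup was not tested.

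Day-2 tdTomato and Ki67-RFP cells were compared next. All Ki67-RFP libraries carried the run code HVJH2BGXX and the day-2 libraries none, so a difference of run cannot be told apart from the sort. Of 16 members tested, 2 rose and 3 fell at day 2, where 14.3% of all 6952 genes rose and 14.2% fell. With 5 of 16 called the members were close to the background. The median log2 folds were 0.07 for members and 0.01 for all genes, and 10 of the 16 were at the minimum in both sorts. Cacna1c rose by 1.28 ± 0.26, from 32.3, 34.3, 18.5 and 36.2 CPM in Ki67-RFP to 81.1, 61.9, 76.2 and 62.03 at day 2, and Cacnb4 by 2.86 ± 0.46. Kcnip3 fell by 1.31 ± 0.32, Kcnq1ot1 by 1.29 ± 0.12 and Kcne1l by 0.78 ± 0.24 on the log2 scale. None of these 5 overlapped between the sorts, nor did 78.5% of all called genes. Cacnb4 passed the filter through day 2 alone and Kcnip3 through Ki67-RFP alone, so the filter favoured their differences. Cacng5 (0.41 ± 0.24), Cacnb3 (0.22 ± 0.25) and Scn3b (0.63 ± 0.37) did not pass. Neuroblast-like cells were 128 of 220 at day 2 and 73 of 315 in Ki67-RFP. Within neuroblast-like cells Cacna1c was at 169.8 ± 23.3 CPM at day 2 and 61.5 ± 64.2 in Ki67-RFP, with overlapping libraries, and Cacng5 at 150.1 ± 21.6 and 157 ± 9.86. These comparisons share sorts (Troy-GFP, day 2 and Ki67-RFP each enter more than 1 of them), so their values are given side by side only.

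The mixed sort, which adds olfactory bulb and O4-positive cells, was compared with day-60 tdTomato. In the mixed day-60 sort 28 of 49 members tested rose and 7 fell against day-60 tdTomato, where 22.2% of all 8152 genes rose and 21.1% fell. The median log2 fold was 2.11 for the members and 0.00 for all genes. Of the 49, 18 were at the minimum in both sorts, 26 passed through the mixed sort alone and 4 through day 60 alone. Among the 18, 4 rose and 4 fell. Without the filter, 42 of 89 members rose and 11 fell, where 14.3% of all 16344 genes rose and 12.8% fell. The sort held 125 oligodendrocyte-like and 74 mature neuron-like cells of 314, against 2 and 4 of 349 in day-60 tdTomato; the part of this makeup in the differences was not tested.

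Of 14 voltage-gated potassium channel alpha subunit genes tested, 10 rose and 2 fell. Over all genes tested, 22.2% rose and 21.1% fell. Of the 28 members of any role that rose, only 4 were at the minimum in both sorts, so the filter favoured most of the rises. Kcna1 rose by 5.27 ± 0.45 on the log2 scale (adjusted p = 1.1e-07), and by 5.90 without day-60 library 4. Kcnc2 rose by 4.08 ± 0.75, and Kcnb2, at 42.03, 76.1, 78.2 and 34.9 CPM in the mixed sort and 0 in every day-60 library, was at least 34.6-fold higher. Of the inward rectifiers, Kcnj3, a G protein-gated channel, rose by 4.89 ± 0.64, and Kcnj4, at 0 in every day-60 library, was at least 24.2-fold higher. Kcnk13 rose by 4.69 ± 0.63 and the Kcnd-binding subunit Kcnip1 by 4.78 ± 0.65. Of the calcium channel genes, Cacna1c rose by 4.49 ± 0.70 and Cacnb3 by 4.44 ± 0.82, while Cacna1i, a T-type channel at 0 in the day-60 libraries, was at least 24.4-fold higher. Without day-60 library 4 Cacna1c was at 5.12 and Cacnb3 at 5.10, and without day-60 library 1 Cacnb3 was at 3.84. Kcnip2 had a mean of 107 ± 78.03 CPM but stood at 183, 139.5, 0 and 107 in the mixed libraries, and did not pass at 2.11 ± 1.92.

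The 7 members that fell in the mixed sort were potassium channel genes or, for Kcne1l, an auxiliary subunit. Kcnk1 fell by 2.91 ± 0.18, from 745, 830.4, 776 and 720.1 CPM to 74.6, 149, 112 and 123, and Kcnk2 by 1.43 ± 0.35. Kcne1l fell by 3.85 ± 0.68, Kcnn3 by 2.39 ± 0.41, Kcnn2 by 2.02 ± 0.20, Kcnc4 by 1.63 ± 0.49 and Kcna2 by 0.57 ± 0.16 on the log2 scale. Only 4 of the 7 were at the minimum in both sorts. Kcne1l, with the largest fall, passed through day 60 alone, so the filter favoured its fall. The sorts overlapped for Kcna2 and not for the other 6, and 84.2% of all called genes did not overlap. Without mixed library 1, Kcnc4 was at -1.53 and no longer passed (adjusted p = 0.053). Kcnq1ot1 (-0.25 ± 0.11), Scn8a (-0.06 ± 0.21) and Kcnma1 (-0.05 ± 0.34) did not pass.

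**Figure D3:**
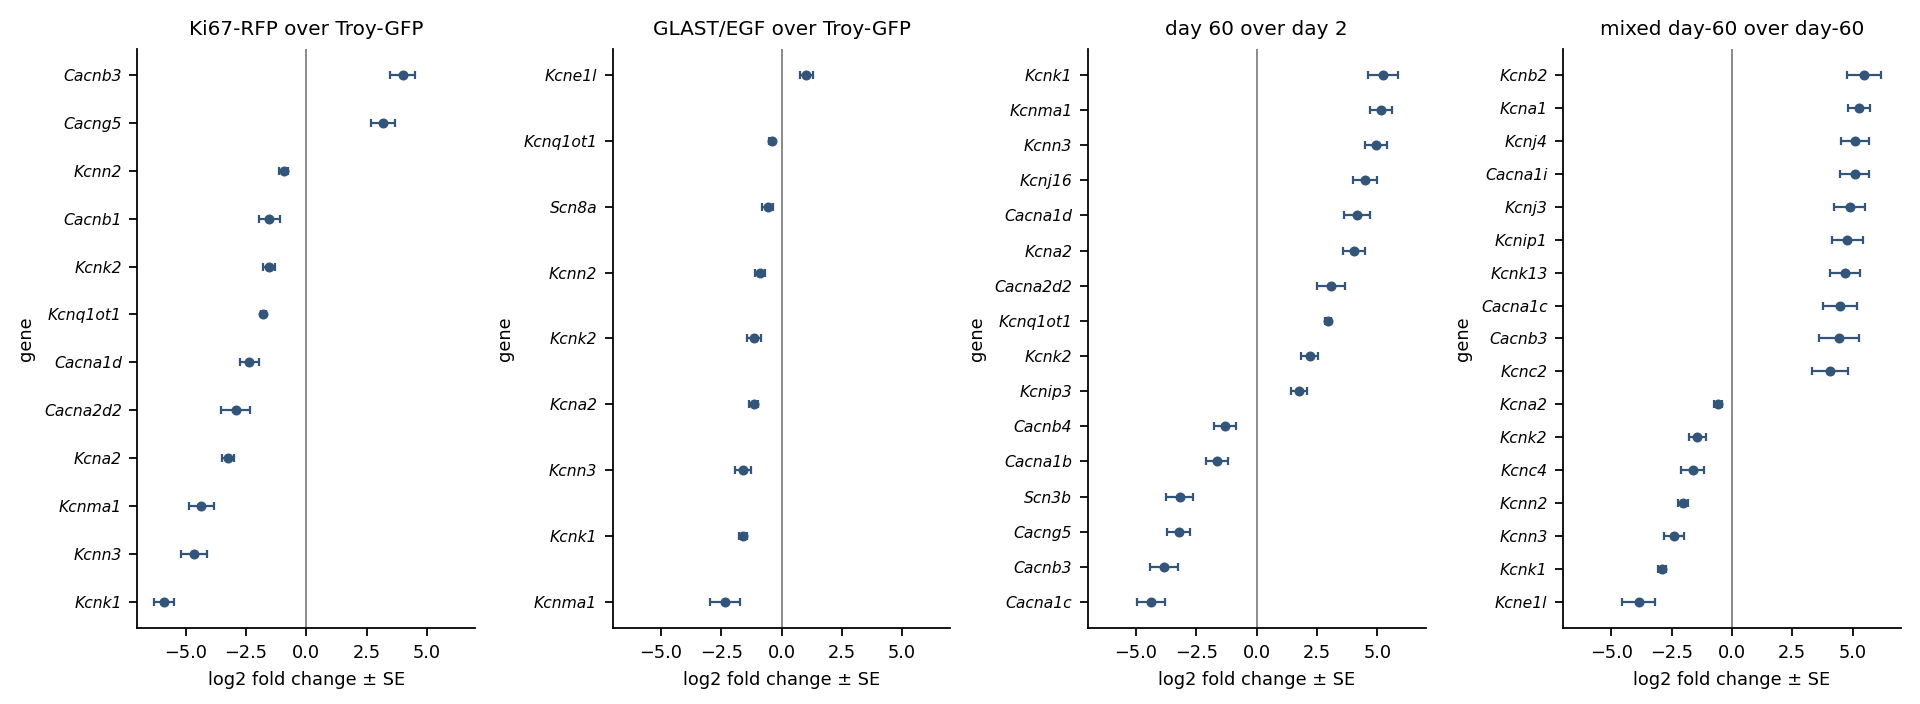
Log2 fold change ± SE (x axis) of the called members with the largest changes (y axis) in 4 comparisons of sorts, 4 libraries each. Kcnk1 lies far below 0 in Ki67-RFP over Troy-GFP and far above 0 in day 60 over day 2; Kcnma1 at day 60 and Kcnb2, Kcnj4 and Cacna1i in the mixed sort are fitted values against libraries at 0.

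Day-60 tdTomato and Troy-GFP cells were also compared within the NSC-like class. Of 19 members tested, 1 rose and 0 fell in limma voom, and 4 had an unadjusted p below 0.05; 2.31% of all 6537 genes rose and 2.69% fell. The median log2 fold was 0.03 for members and -0.01 for all genes, and 16 of the 19 were at the minimum in both groups. Kcnk1 rose by 0.52 ± 0.11 (adjusted p = 0.0016), with day-60 libraries at 830.1, 925, 852 and 836 CPM and Troy-GFP libraries at 549, 612, 605 and 693, which did not overlap. The clusters behind the class differed: the Thbs4-led cluster, low in Kcnk1, held 6.92% of the NSC-like cells of day 60 and 30.4% of those of Troy-GFP, and the Crym-led cluster 53.3% and 28.04%. Within the Thbs4-led cluster, from 20 and 65 cells, Kcnk1 was at 351 ± 116 and 193 ± 81.4 CPM, given without a test. With that cluster left out, an alternative added after the data had been seen, Kcnk1 was at 895 ± 50.1 CPM at day 60 and 799 ± 125 in Troy-GFP, and its log2 fold of 0.18 did not pass (adjusted p = 0.57). In that fit Kcnq1ot1 was the member called, at -0.43 ± 0.09 and so lower at day 60 (adjusted p = 0.0036), against -0.22 ± 0.09 (0.14) over the whole class. Libraries of the run HVJH2BGXX alone gave 0.44 for Kcnk1 (adjusted p = 0.054). Kcna2 (-0.04 ± 0.14), Kcnn3 (0.03 ± 0.22), Kcnma1 (0.54 ± 0.28) and Kcnj16 (0.29 ± 0.28) did not pass, and the intervals of Kcnma1 and Kcnj16 are wide.

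Mature neuron-like cells of the mixed sort were compared with neuroblast-like cells of day 2, 2 stages of the neuronal lineage. The mixed sort took cells of the SEZ or the olfactory bulb, and day 2 of the SEZ alone. The groups also differ in time after tamoxifen (60 against 2 days), age (8 to 19 against 8 to 10 weeks) and run code. These differences cannot be told apart from the stage. Of 22 members tested, 18 rose and 0 fell in mature neuron-like cells, where 34.6% of all 2739 genes rose and 29.6% fell. The median log2 fold was 3.97 for members, or 3.84 with genes at 0 set to their bound, and 0.09 for all genes. All 22 met the minimum in mature neuron-like cells and only 5 in both classes, of which 3 rose. The rises of the other 17 were therefore fixed in part by the filter. With 18 or 19 cells per mixed library and 26 to 39 per day-2 library, genes had to reach 90.98 CPM in at least 4 of the 8 libraries to be tested. Without this filter, 51 of 84 members rose and 1 fell, where 18.5% of all 13523 genes rose and 12.3% fell.

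Kcnd2 was at 306, 408, 438 and 379 CPM in mature neuron-like and 0, 40.2, 9.51 and 0 in neuroblast-like cells, a log2 fold of 5.20 ± 0.47, which became 5.83 without day-2 library 2. The beta subunit gene Kcnab3 rose by 4.64 ± 0.48. Kcnb2 and Kcnma1, both at 0 in the day-2 libraries, were at least 24.4-fold and 24.6-fold higher, and Kcnj4 at least 17.8-fold. Of the sodium channel genes, Scn2a1, listed as Scn2a in the annotation and the main sodium channel of young axons, rose by 5.16 ± 0.41, Scn3a by 1.89 ± 0.45 and Scn8a by 1.01 ± 0.31. Of the calcium channel genes, Cacna1a rose by 4.68 ± 0.44, and Cacna1d and Cacna1i, at 0 in the day-2 libraries, were at least 19.2-fold and 17.9-fold higher.

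Several calcium channel genes were already present in neuroblast-like cells. Cacna1c stood at 197, 170.2, 171 and 140.3 CPM in neuroblast-like and 191, 222, 198 and 163 in mature neuron-like cells, a log2 fold of 0.27 ± 0.23 that did not pass. Cacng5 was at 121, 150.4, 172 and 158 and 137, 135, 103 and 155 CPM (-0.09 ± 0.26). Scn3b (0.63 ± 0.38) and Kcnc1 (0.54 ± 0.47) did not pass either, and the libraries of all 4 overlapped. Cacnb3 and Cacnb4 rose by 1.08 ± 0.30 and 0.93 ± 0.26, smaller values than that of the pore-forming gene Cacna1a.

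**Figure D4:**
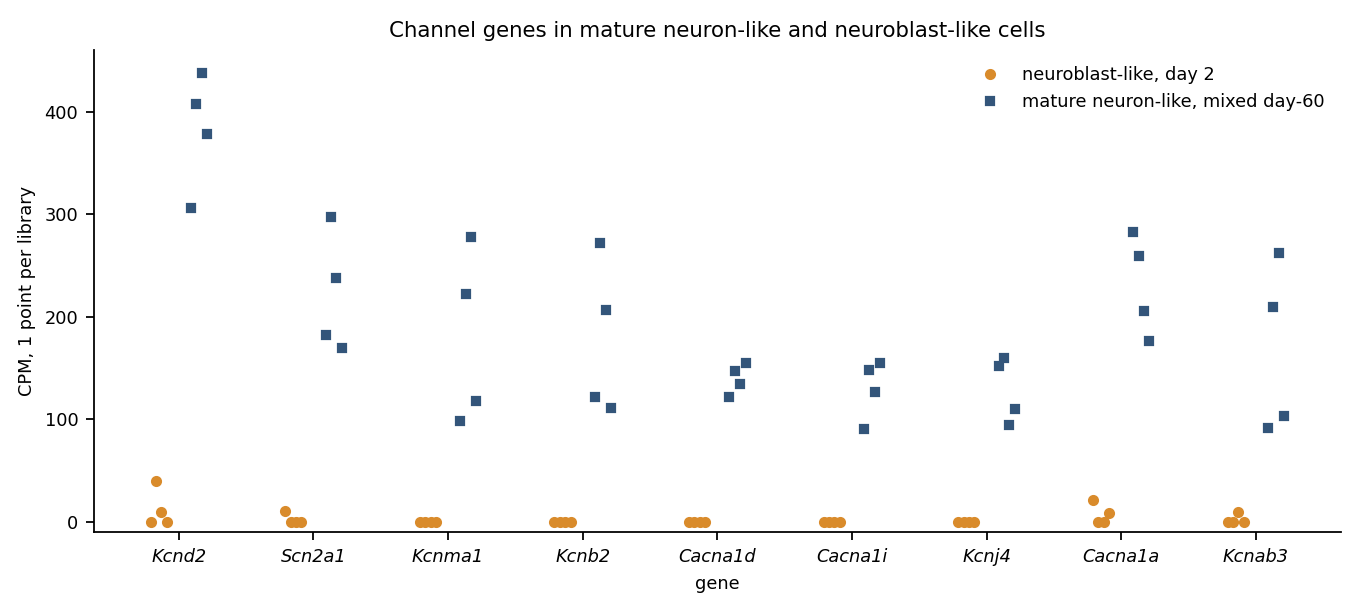
CPM (y axis, linear) of 9 members with large rises, 1 point per library, in neuroblast-like cells of day 2 (circles) and mature neuron-like cells of the mixed sort (squares). The circles lie below the squares for every gene shown.

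Genes of ion transport outside the 3 symbol families gave the following counts. Over all genes tested, 28.4% rose and 31.2% fell in Ki67-RFP against Troy-GFP, and 34.8% rose and 32.8% fell at day 60. In mature neuron-like against neuroblast-like cells, 34.6% rose and 29.6% fell. How many listed genes passed the filter through 1 group alone was not counted. Of 6 sodium pump subunit genes, 5 were tested in Ki67-RFP against Troy-GFP and 4 fell, including the glial subunit gene Atp1b2, while 5 were tested at day 60 against day 2 and 4 rose. All 5 tested rose in mature neuron-like against neuroblast-like cells. Of 8 genes of chloride transport, 4 of 5 tested fell in Ki67-RFP and 4 of 5 rose at day 60. In mature neuron-like cells 4 of 4 rose: Clcn3, Slc12a2, Ttyh1 and Slc12a5, the last the potassium chloride exporter of mature neurons. Of 13 genes of calcium pumps, exchangers and stores, 5 of 6 tested fell and 1, the exchanger gene Slc8a1, rose in Ki67-RFP, and 6 of 7 rose at day 60, with Slc8a1 falling. Of 9 genes of the axon initial segment and its channel-binding factors, 3 of 4 tested fell in Ki67-RFP, and 4 of 4 rose in mature neuron-like cells. At day 60, 3 of 5 rose and 1, Fgf13, fell. None of the 4 Hcn genes, the pacemaker channels, passed the filter on low values in any comparison. In the mixed sort against day-60 tdTomato, where 22.2% of all genes rose and 21.1% fell, the lists went both ways. Of 6 sodium pump genes tested 4 rose and 2 fell, and of 6 chloride genes 2 and 1. Of 10 calcium genes 6 rose and 2 fell, and of 6 initial segment genes 3 and 2. In GLAST/EGF against Troy-GFP, 3 of 5, 3 of 5, 2 of 5 and 3 of 3 fell and 0 rose, where 15.5% of all genes fell. Within NSC-like cells, day 60 against Troy-GFP, 1 of these genes rose, the sodium pump beta gene Atp1b2, of 19 tested over the 5 lists. Of all genes tested there, 2.31% rose.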

How the data were processed

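Tables of 28 libraries, with 96 wells each, were deposited by the authors as estimated transcript counts per gene and well: barcodes counted and corrected for collisions among 256 random barcodes, so values need not be whole. Of 4801006 values above 0, 4800995 equalled that correction within 1e-06. Per the submitters' processing notes, BWA 0.6.2-r126 and the mouse build mm10 were used; whether counting used the strand is not given in the sources used here. Members and gene lists were chosen with earlier results of these data known, and membership used the summed transcripts.

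Wells with at least 1000 transcripts were kept. Cells were clustered without channel genes (scanpy 1.11.5, leidenalg 0.10.2, Python 3.11.15) and clusters were named from marker lists; no doublet caller was run. Transcripts were summed per library, or per library and class with at least 5 cells, and tested in limma 3.58.1 (voom, R 4.3.3) over all genes, with trimmed-mean scaling and Benjamini-Hochberg adjustment. Genes were tested with at least 15 transcripts and the level of 10 transcripts at the median depth in at least 4 libraries. With libraries left out, the number of libraries asked for was that of the smaller group, so the genes tested changed too. The script was tested on simulated data. Sort levels are CPM scaled with factors from 0.9 to 1.28; class levels are plain CPM, although scaled values had been planned. Depth sets precision: Prom1/CD24 libraries held 11 to 20 cells each. Intervals are 95% exact Poisson and cover counting error only.

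Members described across all sorts were the 20 with most transcripts and the 2 with most in each role; in each comparison, up to 10 higher and 10 lower called members with the largest log2 fold were named, and some further called or not called members were named after their values were seen. Alternatives were other scalings, no filter, limma trend, other cell minimums, thinning, other clusterings, the run, a replicate block and leaving out each library. 3 alternatives were chosen after seeing the data: NSC-like cells with the cluster led by intestinal genes, NSC-like cells without the Thbs4-led cluster, and GLAST/EGF against Troy-GFP without 3 libraries. Some genes are not reported here by name; they are counted in the totals.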

Additional observations from a re-analysis of the deposited data

Results flagged for a closer look

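Among 159 groups of 4 libraries checked, 10 held 1 library far from the other 3 by Dixon's test at its 95% critical value, which chance passes in about 1 in 20 groups. Values are scaled CPM.

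Of potassium channel subunits, Kcnip3 was at 45.2 in day-2 library 3, against 17.2 to 20.7 in the others, and Kcne1l at 102 in Troy-GFP library 4, against 39.4 to 47.95. Of sodium channel genes, Scn8a was at 42.3 in GLAST/EGF library 1, against 56.5 to 59.1, and Scn3a at 61.8 in day-60 library 4, against 2.21 to 10.997. In that same library Cacna1a, a P/Q-type calcium channel gene, was at 84.1, against 23.5 to 33.2. Cacna1d was at 13.4 in GLAST/EGF library 2, against 31.1 to 34.7, and Cacna1b at 30.2 in mixed library 1, against 8.32 to 10.3. Of auxiliary genes, Cacnb1 was at 21.4 in Troy-GFP library 4, against 24.5 to 24.9, and at 47.3 in mixed library 3, against 13.8 to 18.5. Cacna2d2 was at 20.7 in mixed library 2, against 55.6 to 60.7.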

How the results depend on the processing

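The members called in each comparison, 100 values in all, kept their direction under every alternative in which they could be tested. Without the filter on low values, called members numbered 36 of 82 in Ki67-RFP against Troy-GFP (42.5% of all genes), 41 of 86 in day 60 against day 2 (47%), 9 of 78 in day 2 against Ki67-RFP (14.5%), 53 of 89 in the mixed sort (27%) and 52 of 84 in mature neuron-like cells (30.7%). Thinned to 1000 transcripts per cell, fewer members could be tested (3, 4, 1, 3, 5, 4 and 1, in the order Ki67-RFP, day 60, day 2, GLAST/EGF, mixed, NSC-like and mature neuron-like) and 3, 4, 1, 1, 3, 0 and 1 were called. Of all genes, 68%, 74.5%, 29.1%, 20%, 55.5%, 2.11% and 76.3% were called. With libraries of the run HVJH2BGXX only, fewer libraries, 5 of 17 were called in GLAST/EGF against Troy-GFP (13.5% of all genes). Within NSC-like cells 0 of 21 were called (2.34%). Without the 3 libraries high in intestinal genes, 5 of 21 were called in GLAST/EGF (15.6% of all genes). Leaving out each library gave 14 to 17 called members of 22 to 24 tested for Ki67-RFP. For day 60 it gave 16 to 25 of 22 to 31, and 5 to 7 of 16 to 19 for day 2. For GLAST/EGF it gave 8 to 10 of 20 to 22, and 34 to 38 of 50 to 52 for the mixed sort. Within NSC-like cells 1 of 20 or 21 was called, and in mature neuron-like cells 17 to 25 of 20 to 30. Over all genes tested the shares called were 55.3% to 57.9%, 62.7% to 67.1%, 21.7% to 27% and 23.2% to 28.2% in that order. They were 36.7% to 41.3% for the mixed sort, 3.23% to 4.64% within NSC-like and 59.5% to 62.4% in mature neuron-like cells. Unscaled totals moved the median of all genes to -0.15 in day 60 against day 2 and 0.13 in the mixed sort. They gave 18 of 24 and 35 of 49 members called, where 68.2% and 44.6% of all genes were called.

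Same-numbered libraries share only a number: their deviations had correlations of -0.08 to 0.07. With the library number as a replicate block, 14, 18, 5, 9, 36, 1 and 18 members were called, in the order of Ki67-RFP, day 60, day 2, GLAST/EGF, mixed, NSC-like and mature neuron-like. The members tested were 21, 24, 16, 19, 49, 19 and 22. Of all genes, 58.7%, 66.4%, 28.6%, 27.8%, 41.4%, 5.71% and 62% were called. Depth limits the members with few transcripts, most of which could not be tested.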
